A study of Mus musculus with 6 samples.

Results

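The imprinted cluster on proximal mouse chromosome 6 was followed through 10 of its genes, Calcr, Tfpi2, Casd1, Sgce, Peg10, Ppp1r9a, Pon1, Pon3, Pon2 and Asb4, taken by name from the 53546 gene features counted in each library. The members were chosen as genes of the cluster, with earlier results of these data known. Some genes that lie between them, such as Gng11, Bet1 and Col1a2, are not members. The data are RNA sequencing counts from C57BL/6 mice in 6 libraries, of which 3 carry the label control and 3 the label spinal cord injury. No other genotype, treatment or time after injury is given in the labels, which give spinal cord in one place and intervertebral disc in another as the tissue, while the series text speaks of retina and of mice 21 days old. Whether each library is a different animal is not stated, and p-values therefore reflect the spread among the 6 libraries alone, which may be technical.

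Imprinted genes are transcribed mainly from the copy inherited from one parent, because a methylated control region marks the 2 parental chromosomes differently. In this cluster the control region lies at the shared start of Sgce and Peg10, which are transcribed away from each other from the paternal copy. Several neighbours on both sides are known to favour the maternal copy in some tissues, placenta and brain among them. The counts used here do not separate the parental copies, so they give the level of each gene and say nothing about its imprint.

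The 10 genes span 1747 kb of chromosome 6, and in the files every member covers exactly the exons that the GENCODE M21 annotation on GRCm38 gives for it (100% of the bases in both directions). All are protein coding. In order of start, Calcr, the calcitonin receptor, runs from 3685680 to 3764714 on the minus strand, and Tfpi2, a secreted inhibitor of serine proteases, from 3962595 to 3988919 on the minus strand. Casd1, an enzyme that O-acetylates sialic acids, runs from 4600839 to 4643355 on the plus strand. Sgce, which encodes epsilon-sarcoglycan, a membrane protein of muscle and brain, runs from 4674350 to 4747207 on the minus strand. Peg10, derived from a retrotransposon, starts 98 bases further on and runs from 4747306 to 4760517 on the plus strand in 2 exons. Ppp1r9a encodes neurabin, which binds actin and protein phosphatase 1 in neurons, and runs from 4902917 to 5165661 on the plus strand. The paraoxonases, enzymes that hydrolyse lactones and esters, follow on the minus strand, Pon1 from 5168090 to 5193946, Pon3 from 5220852 to 5256286 and Pon2 from 5264147 to 5298455. Asb4, a substrate adaptor of ubiquitin ligases, runs from 5383386 to 5433022 on the plus strand. The counting did not use strand and left out pairs that fell on more than 1 feature. The feature Gm44424 on the opposite strand shares 680 exonic bases with Pon2, 9.27% of the Pon2 exons, so pairs there were not counted for Pon2, and no other member shared exonic bases with another feature.

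Promoter windows of 300 bases, 250 before to 50 after a start, were matched by symbol in RefSeq (GRCm38.p6) for 8 of the 10 members. Sgce and Peg10 were not matched. CpG dinucleotides, the sites that DNA methylation uses, are the capitals below, and 4 windows are shown because their genes cover the range of levels in these libraries, with Casd1, Ppp1r9a and Pon2 well expressed and Pon1 near 0.
Casd1, chr6:4600661-4600960, plus strand: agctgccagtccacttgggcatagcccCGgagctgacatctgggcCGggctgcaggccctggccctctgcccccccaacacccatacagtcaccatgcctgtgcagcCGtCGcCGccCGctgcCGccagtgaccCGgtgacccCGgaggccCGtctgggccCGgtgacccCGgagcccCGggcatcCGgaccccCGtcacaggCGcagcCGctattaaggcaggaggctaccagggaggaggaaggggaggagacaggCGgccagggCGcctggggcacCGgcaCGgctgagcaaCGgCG
Ppp1r9a, chr6:4902725-4903024, plus strand: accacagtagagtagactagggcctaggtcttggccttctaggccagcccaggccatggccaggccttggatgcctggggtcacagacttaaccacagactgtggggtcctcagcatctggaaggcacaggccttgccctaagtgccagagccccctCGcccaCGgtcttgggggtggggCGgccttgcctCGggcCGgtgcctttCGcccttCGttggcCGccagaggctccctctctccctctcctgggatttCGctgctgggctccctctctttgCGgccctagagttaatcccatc
Pon2, chr6:5298291-5298590, minus strand: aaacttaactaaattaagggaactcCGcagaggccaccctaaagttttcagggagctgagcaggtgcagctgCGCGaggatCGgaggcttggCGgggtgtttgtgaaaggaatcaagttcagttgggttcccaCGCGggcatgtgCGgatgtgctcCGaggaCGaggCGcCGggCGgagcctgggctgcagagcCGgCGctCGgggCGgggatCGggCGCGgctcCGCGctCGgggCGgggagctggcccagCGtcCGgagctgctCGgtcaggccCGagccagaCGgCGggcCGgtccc
Pon1, chr6:5193897-5194196, minus strand: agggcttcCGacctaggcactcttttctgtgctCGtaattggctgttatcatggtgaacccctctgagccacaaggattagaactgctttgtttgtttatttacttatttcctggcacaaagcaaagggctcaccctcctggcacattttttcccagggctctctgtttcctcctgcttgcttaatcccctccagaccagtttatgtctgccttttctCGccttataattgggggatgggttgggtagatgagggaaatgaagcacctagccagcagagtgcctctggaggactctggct
The Casd1 window holds 23 CpG, the Pon2 window 31 and this Ppp1r9a window 10, while a second Ppp1r9a start a little downstream (4903061 to 4903360) has 48. The Pon1 window holds 3 and the Asb4 window at 5383136 to 5383435 holds 6. The median over 32851 promoter windows was 7. The letters GGGCGG, searched on both strands, were in 35.7% of all windows. They stood in these Casd1, Ppp1r9a and Pon2 windows and not in those of Pon1 and Asb4. CpG and letters did not follow the levels throughout, since Calcr, which had few counts, has a window with 29 CpG and GGGCGG, Tfpi2 has one with 12 CpG and GGGCGG, and a second Casd1 window, also with GGGCGG, has 5 CpG. CpG counts and letter matches describe these windows and were not tested against the levels.

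Total counts were between 2615213 and 3921627 in the controls and between 2385703 and 2905828 after injury. Controls 1 and 2 stood apart from control 3 and the injury libraries. In them 1 feature, named Ltbp3 in the files, took 21.8% and 17.2% of all counts, and elsewhere no feature took over 5.41%. Of 14 nervous system genes read, 13 were lower in controls 1 and 2 than in each of the other 4 libraries. Their summed level was 283 and 144 CPM (each count over its library's total, on the usual CPM scale) in controls 1 and 2, 8384 CPM in control 3 and 8593 to 9147 CPM after injury. Most of the sums in controls 1 and 2 came from the exception, Calb1, with 249 and 78.5 CPM there. Calb1 had 231 CPM in control 3 and 216 to 252 CPM after injury. Of the 14, 6 were at 0 counts in control 1 and 4 in control 2. All 7 kidney and epithelial genes read were higher in controls 1 and 2, with sums of 3222 and 1889 CPM against 13.8 CPM in control 3 and 7.13 to 12.4 CPM after injury. The listed cartilage and disc markers could be read only in part, 3 of 9 genes, and Col2a1, Col9a1, Sox9, Comp, T and Matn1 were not read. The 3 summed to 3.08, 15.3 and 52.4 CPM in controls 1, 2 and 3 and 43.2 to 68.5 CPM after injury. Most of the sums in control 3 and after injury came from 1 gene, Col11a2, with 39.8 CPM and 39.0 to 59.5 CPM. Of the 3, Acan, the main proteoglycan of cartilage, was at 0 counts in controls 1 and 2. Chad, a matrix protein of cartilage, had 2.05 and 11.2 CPM there against 1.15 CPM in control 3 and 0.688 to 2.10 CPM after injury. Genes of connective tissue and vessels (5 of 9 read) summed to 136, 2615 and 167 CPM in the controls and 164 to 617 CPM after injury. Leukocyte genes (7 of 8 read) summed to 265, 780 and 99.4 CPM in the controls and 84.3 to 173 CPM after injury. The 1 liver gene read, Cyp2e1, stood at 2161, 120 and 2.68 CPM in the controls and at most 3.16 CPM after injury. Results on the members are given with and without these libraries, and the part of tissue content in them was not tested.

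Controls 1 and 2 were both below the other 4 libraries for 5 of the 10 members (Casd1, Sgce, Peg10, Ppp1r9a and Pon2) and both above them for 2 (Calcr and Tfpi2). Calcr and Tfpi2 did not pass the filter on low counts. Of the 7 members that passed it 5 were below in this way and 0 above, and of all 12646 features that passed it 34.1% were below and 35.3% above. On library totals all 3 injury libraries were above all 3 controls for 2 members, Peg10 and Pon2, against 13.7% of the 12646 features. They were below all 3 controls for 0 members, against 25.4%. With the libraries scaled by TMM, as in the edgeR tests, all 3 injury libraries were also above all 3 controls for Casd1, Ppp1r9a and Pon3. The share of all features with that scaling was not computed.

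Peg10 and Sgce, the paternally expressed pair, were high in control 3 and all injury libraries and low in controls 1 and 2. The level of Peg10 was 2.57 CPM in control 1, 29.8 CPM in control 2 and 349.9 CPM in control 3, and after injury it was 401, 425 and 367 CPM. The injury libraries averaged 397 ± 29.2 CPM (SD, n = 3) and the controls 127 ± 193 CPM (n = 3). The groups did not overlap for Peg10, but control 3 lay far nearer to the injury libraries than to the other two controls. Injury averaged 155-fold above control 1, 13.3-fold above control 2 and 1.14-fold above control 3, and the value of control 1 rests on 10 counts (exact Poisson interval 1.23 to 4.72 CPM, counting error only). In bulk RNA fewer cells of a type and less RNA per cell cannot be told apart.

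Sgce had 6.67, 53.0 and 194 CPM in the controls, and 170.0, 182 and 163 CPM after injury. Here control 3 was the highest of the 6 libraries, so the groups overlapped. The injury mean was 171 ± 9.54 CPM and the control mean 84.5 ± 97.5 CPM (SD, n = 3 each).

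**Figure D1:**
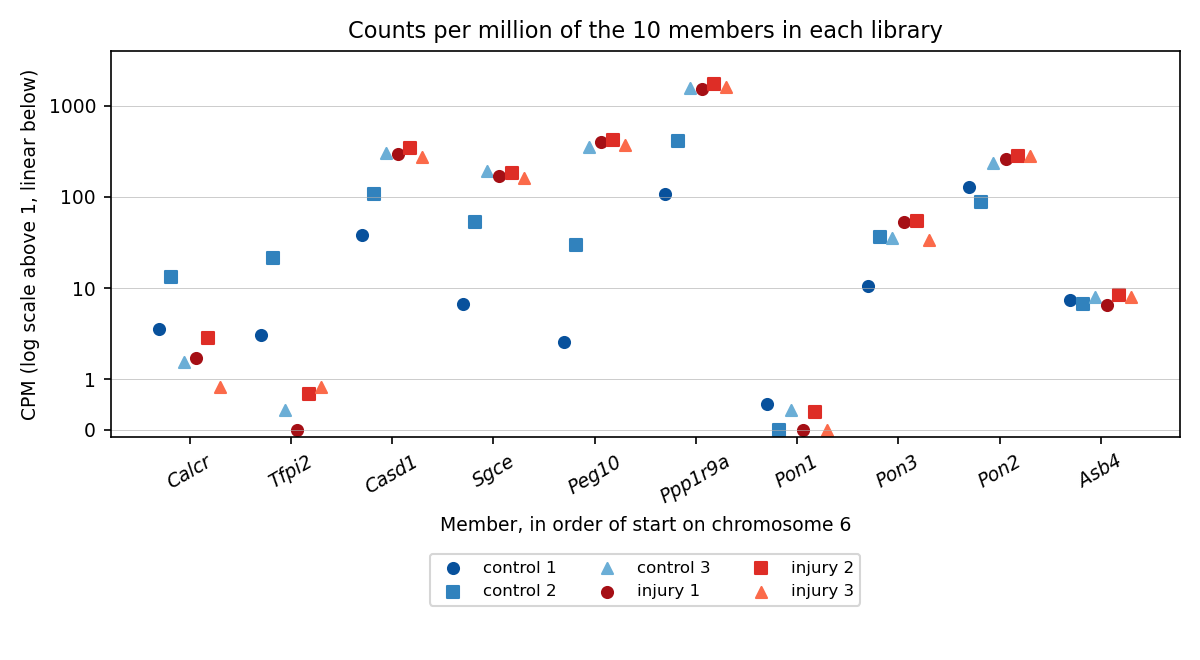
CPM of each of the 10 members (horizontal axis, in order of start) in each library, on a log scale above 1 CPM and linear below, with blue symbols for control and red for injury libraries. Casd1, Sgce, Peg10, Ppp1r9a and Pon2 have controls 1 and 2 below the other 4 libraries, Asb4 lies between 6.54 and 8.43 CPM in all 6, and Pon1 stays at or below 0.513 CPM.

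The pair did not keep 1 ratio. The share of Peg10 among the counts of both genes does not depend on the scaling of a library. It was 27.8% in control 1 (95% Wilson interval 15.8% to 44.0%), 36.0% in control 2 (31.0% to 41.4%) and 64.3% in control 3 (61.8% to 66.8%). After injury it was 70.2% (68.0% to 72.4%), 70.1% (67.9% to 72.2%) and 69.3% (66.7% to 71.8%), intervals that cover counting error only. Sgce therefore gave most of the pair's counts in controls 1 and 2, and Peg10 in the other 4 libraries. Per length, Peg10 stood at 0.612 and 0.895 times Sgce in controls 1 and 2, 2.87 times in control 3, and 3.59 to 3.75 times after injury. All 3 injury shares were above all 3 control shares, by 27.1 percentage points on average, and the exact two-sided permutation test gave p = 0.10, the smallest that 3 against 3 libraries allow (adjusted p = 0.40 over 12 shares computed after the values were seen).

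**Figure D2:**
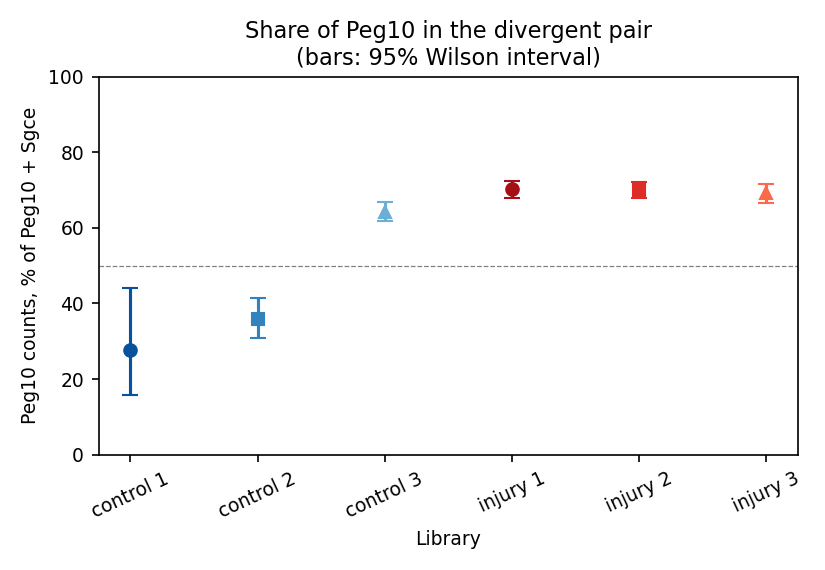
Share of Peg10 in the summed counts of Peg10 and Sgce (vertical axis, percent) for each library, with 95% Wilson intervals and a dashed line at equal counts. Controls 1 and 2 lie at 27.8% and 36.0%, control 3 at 64.3% and the injury libraries at 69.3% to 70.2%.

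Casd1 and Ppp1r9a, on either side of the pair, also had controls 1 and 2 lowest, in that order. Ppp1r9a had the most counts of the 10, with 109, 408 and 1556 CPM in the controls and 1525, 1712 and 1587 CPM after injury. Control 3 lay within the range of the injury libraries, and control 1 was the lowest. Casd1 had 38.2, 109 and 305 CPM in the controls and 292, 343 and 274 CPM after injury, again with control 3 inside the injury range. With the libraries scaled by TMM, as in the edgeR tests, control 3 was below each injury library for both genes. Ppp1r9a then had 1510 CPM in control 3 and 1592 to 1859.5 CPM after injury. Casd1 then had 296 CPM in control 3 and 305 to 372 CPM after injury. The injury means were 1608 ± 95.5 CPM for Ppp1r9a and 303 ± 35.6 CPM for Casd1, against control means of 691 ± 764 CPM and 151 ± 138 CPM (SD, n = 3 each).

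The paraoxonases differed from one another. Pon2, the member of the family found inside cells of many tissues, had 128, 87.7 and 236 CPM in the controls and 260.2, 282 and 281 CPM after injury. Its groups did not overlap, and control 2 was the lowest library. Pon3, which circulates on lipoprotein and is also found in cells, had 10.5, 36.0 and 35.2 CPM in the controls and 53.0, 54.1 and 34.0 CPM after injury. On library totals only control 1 stood clearly low for Pon3, and injury 3 lay below controls 2 and 3. With TMM scaling Pon3 had 11.6, 26.4 and 34.1 CPM in the controls and 55.4, 58.7 and 38.2 CPM after injury. On that scale injury 3 was above each control, so the order depends on the scaling. Pon1, the serum paraoxonase made mainly in liver, had 4 counts over all 6 libraries, 2 in control 1, 1 in control 3 and 1 in injury 2. The exact Poisson interval of a count of 0 reaches 0.941 CPM in control 2, 1.27 CPM in injury 1 and 1.55 CPM in injury 3. Pon1 was not detectable above these limits there. Pon2 took 92.1% of the paraoxonase counts in control 1, 70.9% in control 2, 86.9% in control 3 and 83.1% to 89.2% after injury (exact permutation p = 0.90 between the groups, two-sided; adjusted p = 0.98 over the 12 shares).

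Asb4 was low and, in CPM on library totals, nearly level. It had 7.44, 6.63 and 8.03 CPM in the controls and 6.54, 8.43 and 7.96 CPM after injury, from 19 to 29 counts in each library. The highest library was 1.29-fold above the lowest, and the exact Poisson intervals of all 6 overlapped (for example 4.98 to 10.7 CPM in control 1). The other tested members ranged from 3.21-fold (Pon2) to 166-fold (Peg10) between lowest and highest library. With TMM scaling Asb4 was less level, from 4.86 CPM in control 2 to 9.15 CPM in injury 2.

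Calcr and Tfpi2, at the proximal end, ran the other way. Calcr had 3.59, 13.3 and 1.53 CPM in the controls and 1.72, 2.81 and 0.838 CPM after injury. Tfpi2 had 3.08, 21.2 and 0.382 CPM in the controls, and 0, 0.702 and 0.838 CPM after injury. For both genes control 2 was the highest library and control 1 the next, and the other 4 libraries held at most 8 counts of Calcr and 2 of Tfpi2. The exact Poisson interval of control 2 was 9.90 to 17.4 CPM for Calcr and 16.9 to 26.2 CPM for Tfpi2, above the intervals of each of the other libraries. The intervals of control 1 were 1.96 to 6.03 CPM for Calcr and 1.59 to 5.38 CPM for Tfpi2. They overlapped intervals of other libraries, such as injury 2 (1.21 to 5.54 CPM and 0.085 to 2.54 CPM), so only control 2 stood clearly apart. Connective tissue genes were also highest in control 2, where Col1a2, a chain of type I collagen between Tfpi2 and Casd1, had 1573 CPM against 46.2 CPM in control 1. The summed leukocyte genes were highest in control 2 too. Of the 12646 features that passed the filter, 73.4% were higher in control 2 than in control 1. A relation of Calcr and Tfpi2 to tissue content was not tested.

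Between controls 1 and 2, 7 of the 10 members were higher in control 2, namely Calcr, Tfpi2, Casd1, Sgce, Peg10, Ppp1r9a and Pon3. The ratio was 11.6 for Peg10, 7.95 for Sgce, 6.87 for Tfpi2, 3.76 for Ppp1r9a and 2.84 for Casd1, and 0.686 for Pon2. With 1 library on each side this has no replicate check. Of the 7 members that passed the count filter 5 were higher in control 2, and of all 12646 features that passed it 73.4% were. Of the 14 nervous system genes 6 were higher in control 2, 5 were lower and 3 were at 0 in both, and of 15 imprinted genes read outside the cluster 13 were higher.

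On the scale of CPM per kilobase of exon, which allows genes to be compared, Ppp1r9a and Casd1 led in control 3 and all injury libraries, at 105 to 118 and 67.9 to 84.9. Peg10 came next there at 52.5 to 63.7, followed by Pon2 at 32.1 to 38.4 and Sgce at 15.3 to 18.3. The ranges of these 5 genes over the 4 libraries did not overlap. Pon3 followed, at 10.03 to 15.98, a range that overlapped that of Sgce. Asb4 (1.66 to 2.14), Calcr (0.214 to 0.718), Tfpi2 (at most 0.480) and Pon1 (at most 0.132) were the lowest. In control 1 the order was another, with Pon2 first at 17.4 per kilobase, Casd1 at 9.47, Ppp1r9a at 7.47, and only Pon1 below Peg10, which had 0.385. In control 2 Ppp1r9a (28.1) and Casd1 (26.9) led again, and Tfpi2 came behind them at 12.1 per kilobase.

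The 10 members together held 309, 764 and 2686 CPM in the controls and 2709, 3009 and 2715 CPM after injury. Ppp1r9a gave 35.1%, 53.4% and 57.9% of these counts in the controls and 56.3% to 58.4% after injury. Pon2 gave 41.4% in control 1, 11.5% in control 2 and 8.78% in control 3, and 9.36% to 10.4% after injury. Peg10 gave 0.831%, 3.90% and 13.02% in the controls and 13.5% to 14.8% after injury. Casd1 gave 10.1% to 14.2% in all 6 libraries. Among the 10 genes' shares the smallest p in the exact two-sided permutation test was 0.10, for Peg10 and Asb4 (adjusted p = 0.40, n = 3 each). That is the lowest p that 3 against 3 libraries allow. No share could therefore have passed this test, and it cannot show whether the shares differ between the groups.

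**Figure D3:**
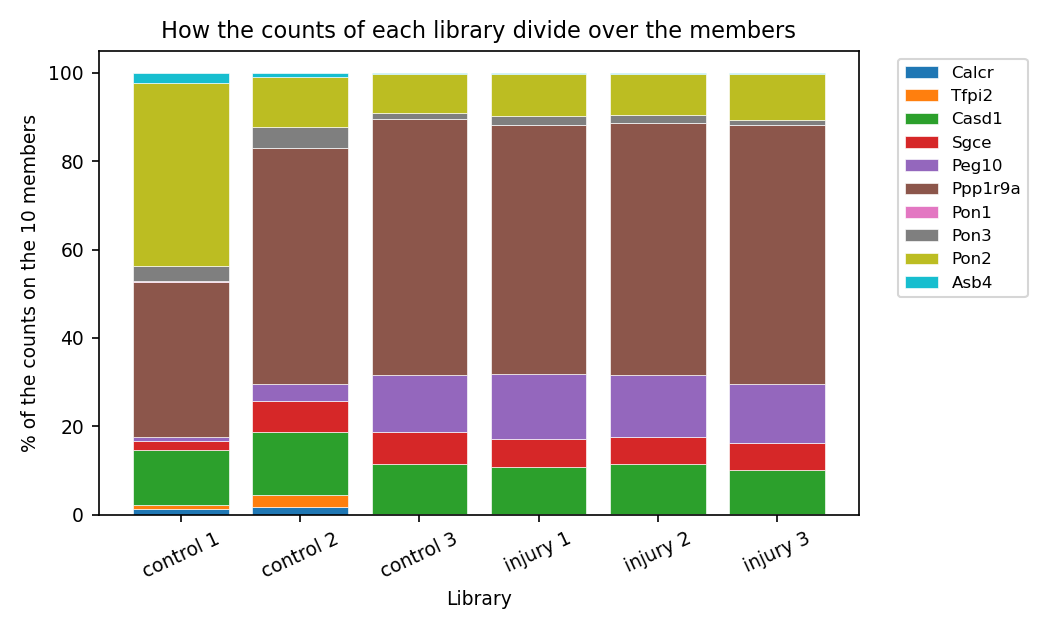
Stacked bars dividing the counts on the 10 members in each library (vertical axis, percent) by gene. Pon2 takes 41.4% in control 1 and 8.78% to 11.5% in the other 5 libraries, and Peg10 0.831% and 3.90% in controls 1 and 2 and 13.02% to 14.8% in the other 4.

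Injury was then compared with control for each member. Over all 6 libraries no member passed. Of the 10 members 7 passed the filter on low counts, and Calcr, Tfpi2 and Pon1 did not. In edgeR's quasi-likelihood test 0 of the 7 were called higher and 0 lower at an adjusted p of 0.05, against a background of 0% called higher and 0% lower among 12646 features. None of the 7 had an unadjusted p under 0.05, against 25.7% of the features. limma-voom also called 0 of the 7. DESeq2 called 0 of the 6 for which it gave a p-value and gave none for Peg10, while weighting the samples by quality in limma-voom gave 5 higher calls (background 27.1% called higher). The log2 fold change was 1.81 (SE 1.42, adjusted p 0.398) for Peg10, 1.22 (SE 0.99, adjusted p 0.411) for Sgce, 1.41 (SE 0.92, adjusted p 0.330) for Ppp1r9a and 1.20 (SE 0.71, adjusted p 0.297) for Casd1. It was 1.01 (SE 0.46, adjusted p 0.220) for Pon3, 0.99 (SE 0.49, adjusted p 0.244) for Pon2 and 0.19 (SE 0.42, adjusted p 0.757) for Asb4. These values moved with the tool and with single controls. limma-voom gave 3.97 for Peg10 and 2.26 for Sgce (adjusted p 0.157 and 0.169). Without control 1 the edgeR value was 0.75 for Casd1, 0.66 for Sgce, 0.90 for Ppp1r9a and 0.67 for Pon3, and without control 2 it was 0.61 for Pon2. The median of the 7 was 1.20 and of all features -0.04. In simulated counts of the 12646 features, drawn at the spread seen over the 6 libraries, 0% of the genes given a 16-fold change were called, so the absence of calls does not show that the members did not change.

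Without control 3, which leaves controls 1 and 2 against the 3 injury libraries, 6 of 8 tested members were called higher and 0 lower (edgeR, adjusted p of 0.05). In that fit 30.2% of 15320 features were called higher and 36.6% lower. Peg10 had the largest value of the members, a log2 fold change of 5.30 (SE 0.83, adjusted p 0.00205). Ppp1r9a followed at 3.27 (SE 0.47, adjusted p 0.00155), Sgce at 3.20 (SE 0.67, adjusted p 0.00584) and Casd1 at 2.64 (SE 0.36, adjusted p 0.00121). Pon2 at 1.76 (SE 0.37, adjusted p 0.00613) and Pon3 at 1.62 (SE 0.42, adjusted p 0.0137) also passed in edgeR. Asb4 at 0.57 (SE 0.43, adjusted p 0.276) and Calcr at -1.59 (SE 0.63, adjusted p 0.0607) did not.

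Without controls 1 and 2, which leaves control 3 alone on its side and assumes that it varies like the injury libraries, 0 of 7 members were called in edgeR (1.05% of 13857 features called higher, 5.72% lower). Peg10 had a log2 fold change of 0.30 (SE 0.16, adjusted p 0.241), Pon3 of 0.54 (SE 0.24, adjusted p 0.158) and Pon2 of 0.34 (SE 0.17, adjusted p 0.204). Pon3 had the largest log2 fold change of the 7 members in this fit. Casd1, Ppp1r9a, Asb4 and Sgce lay between -0.06 and 0.17. In counts simulated for this fit over 13857 features, 60% of genes changed 2-fold and 100% of those changed 4-fold were recovered. The changed genes were drawn only among features above a minimum expected count. Asb4 fell below that minimum, so this recovery does not apply to it.

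**Figure D4:**
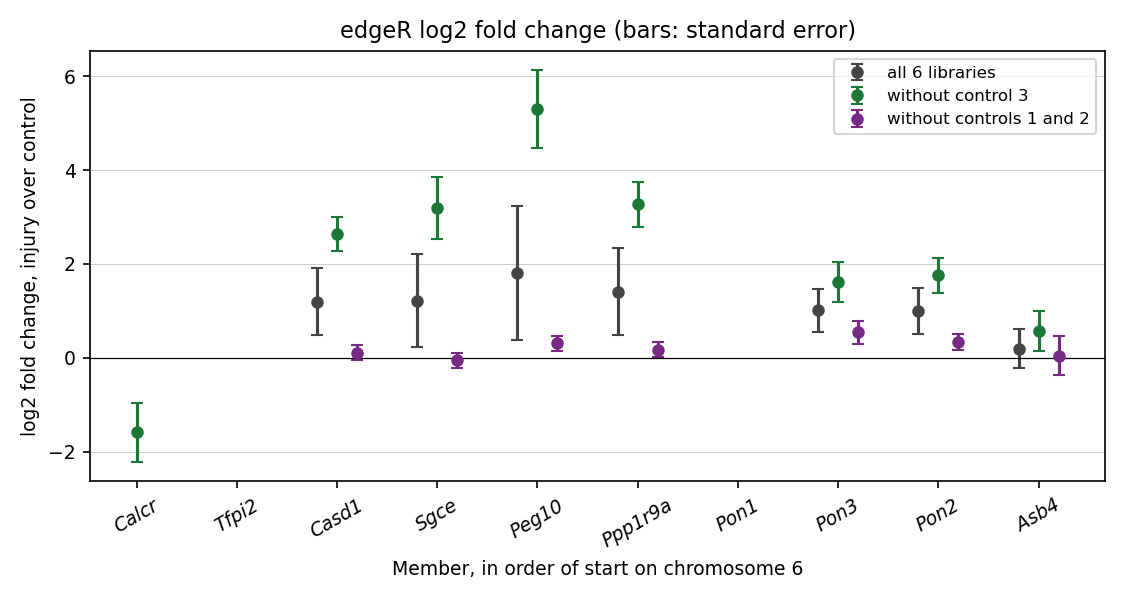
edgeR log2 fold change of injury over control (vertical axis) with its standard error for each tested member, in grey with all 6 libraries, in green without control 3 and in purple without controls 1 and 2. Without control 3 Peg10 reaches 5.30 and 5 further members pass the test, and without controls 1 and 2 the 7 tested members lie between -0.06 and 0.54.

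Genes beside the cluster and others between its members went both ways. The flanking list used here includes Gngt1, Gng11, Bet1 and Col1a2, which start between Tfpi2 and Casd1. Of 16 flanking genes read by name, 13 passed the filter on low counts, and the others (Gngt1, Dlx5 and Dlx6) had at most 1 count over all libraries. Of the 13, 8 had controls 1 and 2 below the other 4 libraries and 4 had them above, against 34.1% and 35.3% of all features, and Col1a2 did neither. Pdk4, a kinase that restrains glucose oxidation and the next well counted gene after Asb4, had 10104, 183 and 92.2 CPM in the controls and 85.0 to 101 CPM after injury. Dync1i1, a dynein chain of neurons further on, had 2.05, 2.80 and 710.5 CPM in the controls and 735 to 850.1 CPM after injury. So Asb4, nearly level in CPM on library totals, sat next to a gene that was highest in control 1. Beyond that lay one that was nearly absent from controls 1 and 2. Between Tfpi2 and Casd1, Gng11, a G protein gamma subunit, had 3.85, 48.4 and 141 CPM in the controls and 159 to 179 CPM after injury. With all 6 libraries none of the 13 flanking genes tested passed (edgeR, smallest adjusted p 0.133, for Hepacam2). Without control 3, 8 of the 13 were called higher, among them Dync1i1 (log2 fold change 8.82), Tac1 (7.52) and Asns (4.28), and 3 were called lower, beside 30.2% and 36.6% of all features. Without controls 1 and 2, which leaves control 3 alone on its side, the log2 fold changes of the 13 lay between -0.39 (Hepacam2) and 1.18 (Col1a2).

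**Figure D5:**
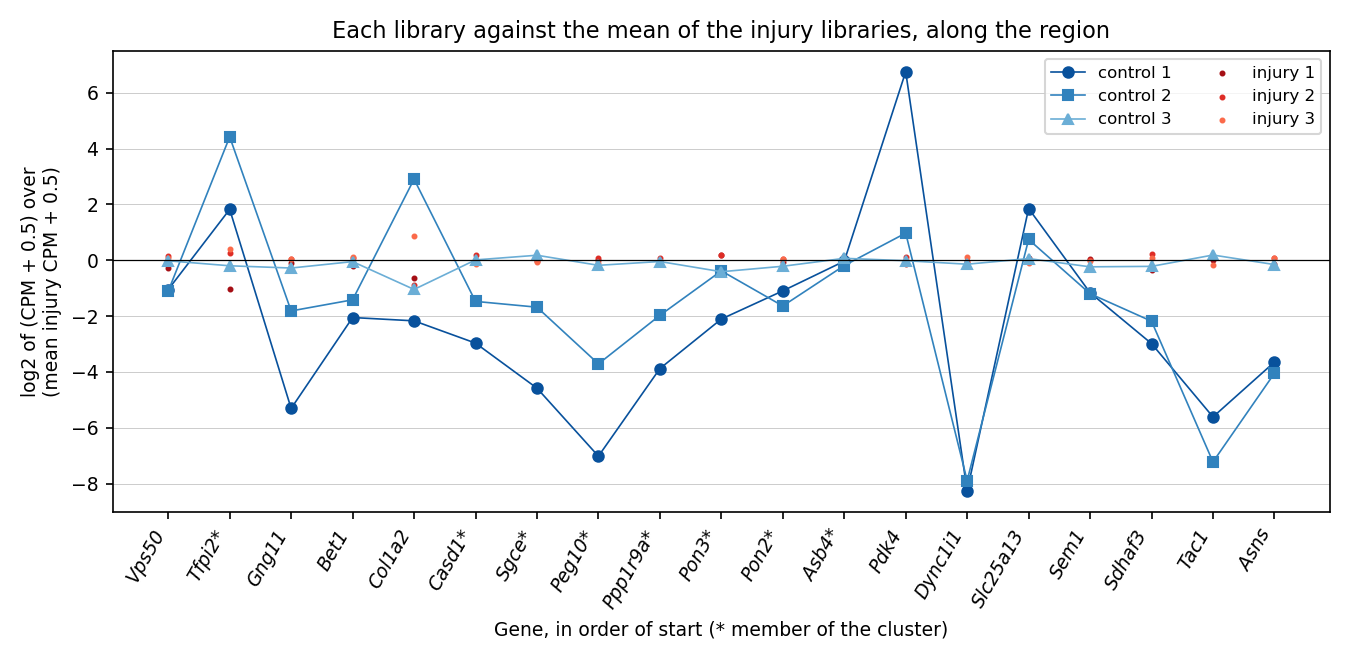
log2 ratio of each library's CPM, plus 0.5, to the mean of the injury libraries, plus 0.5 (vertical axis), for genes with at least 100 counts from Vps50 to Asns in order of start, features with only a Gm name left out, members marked by an asterisk. Controls 1 and 2 stand at -7.02 and -3.71 at Peg10 and near 0 at Asb4. Among the genes past Asb4 they stand above 0 at Pdk4 and Slc25a13. At the others there they stand below 0, down to -8.26 and -7.89 at Dync1i1. Control 3 stays between -1.05 and 0.19 throughout.

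Imprinted genes outside the cluster were read by name where the name lay on its gene and otherwise by the gene that the feature lies on, a reading that may miss part of a gene. Of 42 listed, 15 could be read, 1 of them (Mest) by name. Controls 1 and 2 were below the other 4 libraries for 10 of the 15 and above for 0. Of the 12646 features that passed the filter on low counts, 34.1% were below and 35.3% above. Peg3, a paternally expressed zinc finger gene, had 199, 303 and 2730 CPM in the controls and 2374 to 2850 CPM after injury. Rian, a maternally expressed non-coding RNA, had 1.54, 10.7 and 1344 CPM in the controls and 946 to 1197 CPM after injury. Meg3, of the same locus as Rian, had 1.03, 3.06 and 2315 CPM in the controls and 1521, 931 and 526 CPM after injury. Copg2, a coat protein gene beside Mest, had 31.8, 48.4 and 872 CPM in the controls and 860 to 1116 CPM after injury. Peg3 and Rian, of opposite parental expression, were thus both low in controls 1 and 2. Kcnq1ot1, an antisense RNA, went another way, with 147, 379 and 232 CPM in the controls and 75.9 to 108 CPM after injury, and it was named after its values were seen.

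Likeness of pattern was measured as the root mean square difference of log2 (CPM + 0.5) over the 6 libraries, each gene centred on its mean, among 459 features that lie on the gene of their name and average at least 5 CPM. The nearest to Peg10 were Frmpd1 (0.25), Lpar1 (0.33) and Gria4 (0.36). The nearest to Sgce were Ankrd6 (0.26), Fsd1l (0.27) and Gng11 (0.29), the last from its own neighbourhood. The nearest to Ppp1r9a was Fam3c (0.10), to Pon2 Vcp (0.08), to Pon3 Glipr2 (0.13) and to Asb4 Esco1 (0.09). Among the members the closest pair was Sgce and Ppp1r9a (0.32), followed by Casd1 and Ppp1r9a (0.36), and Sgce and Peg10 differed by 1.02 although they start 98 bases apart. The libraries share their separation of controls 1 and 2 across many features, so such likeness is a description of these 6 libraries.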

How the data were processed

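The labels' protocols name Trizol for the RNA and a TruSeq kit for the libraries. Bowtie 0.12.2, mm8 and mm9 appear in the submitters' processing notes. The deposited counts come from featureCounts 2.0.1, per the file headers, run on pairs whose 2 ends both mapped and added up per gene name over its exons, with no option set for strand, multi-mapping or overlap. The aligner and build behind the counts are not given in the sources used here. The deposited columns named FPKM equal the count over length and over the squared library total, a score rather than an FPKM, and were not used.

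Features were compared with GENCODE M21 exons on GRCm38. Of 53546, 1740 (3.25%) had 90% or more of their exonic sequence on the gene they are named for, all 10 members among them. List genes that did not were read by the gene holding at least 90% of the exonic bases they share, with 100 or more bases. The members and lists were chosen with earlier results of these data known.

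Injury was tested against control over all features with edgeR 4.0.16 (R 4.3.3; TMM, filterByExpr, quasi-likelihood F test, no covariate, Benjamini-Hochberg adjustment, calls at 0.05), and standard errors come from the F statistic. Alternatives used DESeq2 1.42.0 and limma-voom (limma 3.58.1), other scalings and filters, a replicate block and left-out libraries. Every 2 libraries differed by more than sampling noise (chi-square per feature 3.09 or more). The fit was tested on simulated counts. Named genes were the members, the flanking list, up to 4 list genes of highest mean CPM and the 3 nearest by pattern. Limits for a count of 0 are the upper ends of the exact Poisson intervals (95%). Depth (2385703 to 3921627 counts) limits the precision for Calcr, Tfpi2, Pon1 and Asb4.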

Additional observations from a re-analysis of the deposited data

How the results depend on the processing

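The 0 calls among the members held with RLE, upper quartile and total count scaling, with both other filters and with limma-voom, and with DESeq2 for the 6 members other than Peg10, which got no p-value there. limma-voom with sample quality weights called 5 members higher, and among all features 3425 higher and 3617 lower. DESeq2 called 18 features higher and 1485 lower. Leaving out 1 library at a time gave 0 to 6 members and 0 to 4621 features called higher, and 0 to 5610 features lower, all of the calls from the fit without control 3. Without controls 1 and 2 the edgeR test called 146 features higher and 793 lower, and no member. The log2 fold change of Sgce reversed to -0.056 without controls 1 and 2, and that of Asb4 to -0.017 with total count scaling and to -0.031 without control 2 (0.57 without control 3); for the members' log2 fold changes 97 other values kept direction and side of the threshold and 11 passed it. The median log2 fold change of all features was -0.04 with TMM, -0.21 with upper quartile and -0.30 with total count scaling, and under each of these the 6 members other than Asb4 stayed above 0. TMM factors of 0.908 and 1.36 for controls 1 and 2 move their levels; with them Asb4 has 8.20 and 4.86 CPM there. Deviations from the group means correlated at 0.065, -0.138 and 0.059 between libraries of equal replicate number, and at up to 0.243 for unequal ones. With controls 1 and 2 so far from control 3, this cannot show whether the replicate numbers pair the libraries. The fit with the replicate block called 0 members and 0 features, with log2 fold changes of 3.99 for Peg10, 2.20 for Sgce and 2.17 for Ppp1r9a. The cause of the changes with left-out libraries was not tested.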

Other observations

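Within the bounds of Ppp1r9a the files hold 3 further features on the same strand that share none of its exonic bases, Gm26814, Gm26736 and Gm26556. Gm26814 had 29, 94 and 28 counts in the controls and 15, 21 and 6 after injury, so control 2 held the most there, whereas Ppp1r9a itself averaged 3.94-fold higher after injury than in control 2. Gm44432, within Casd1 and off its exons, had 6, 37 and 4 counts in the controls and 2, 4 and 3 after injury.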
